A study of Mus musculus with 2 samples.

Results

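Genomic imprinting is the expression of a gene from only the maternal or only the paternal chromosome. Imprinted genes lie in domains, and each domain is governed by a control region that carries DNA methylation from 1 parent alone, laid down in the germ line at CpG dinucleotides. In the male germ line the inherited marks are erased before birth and paternal marks are being set around the time of birth. ARID4B, with its relative ARID4A, belongs to the SIN3-histone deacetylase corepressor and binds the retinoblastoma protein, and both ARID4 proteins are known to act on the imprinting centre at Snrpn in other mouse tissues. The 35 mouse genes described here were taken as a list of imprinted protein-coding genes in 18 domains, out of 21887 protein-coding genes. This list and the other gene lists below were chosen with earlier results of these data known, so their shares are description only. A gene was counted as marked when an ARID4B interval overlapped its RefSeq record, or the 1000 bp on either side, by at least 1 bp.

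The ChIP library came from testes of wild type mice at postnatal day 1.5, of a hybrid C57BL6/J and 129/SvEv strain, immunoprecipitated with an antibody against ARID4B, and the input library came from the same kind of testes without antibody. Tissue from 108 testes was pooled, so germ cells and all somatic cells of the testis were mixed, and strong binding in few cells cannot be told apart from weak binding in many. There was 1 library of each kind, so no value below has a replicate, none has a test between conditions, and alleles were not separated. The list of enriched intervals held 6632 entries on the 19 autosomes and the X chromosome. Each carried the authors' own evidence score, from 70.02 to 1760.61 with a median of 125.0. A higher value was assumed to be stronger evidence of enrichment over input, and the words strong and weak below rest on that reading. The number of reads behind an interval is unknown. Intervals do not measure expression, so neither the tissue label nor the imprinted state of these genes could be checked here.

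ARID4B intervals were present at 17 of the 35 imprinted genes (48.6%), against 30.7% of all protein-coding genes. These 17 lay in 12 of the 18 domains, a count for which no background share was computed. The marked genes were Mkrn3, Ube3a, Peg12 and Atp10a of the Snrpn domain, Igf2, Cdkn1c, Ascl2, Peg3, Usp29, Plagl1, Dlk1, Igf2r, Grb10, Mest, Gnas, Nnat and Zdbf2. The other 18 had none, and Snrpn itself lay farther from an interval than any other of the 35. As a group the intervals were not strong. The 17 intervals at imprinted genes had a median score of 112.4 (70.83 to 505.11), beside 125.0 for the whole list, and 8 of them scored above the list median. When only intervals above that median were counted, 7 of the 35 genes (20%) were marked, beside 16.7% of all protein-coding genes, so the share stood nearer to the background. When only the 1000 bp on either side of the ends of each record were searched, 11 of the 35 (31.4%) were marked, beside 27.1%, again nearer to the background. Interval widths had a median of 976 bp (472 to 2592 bp), beside 1084 bp for the list.

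**Figure D1:**
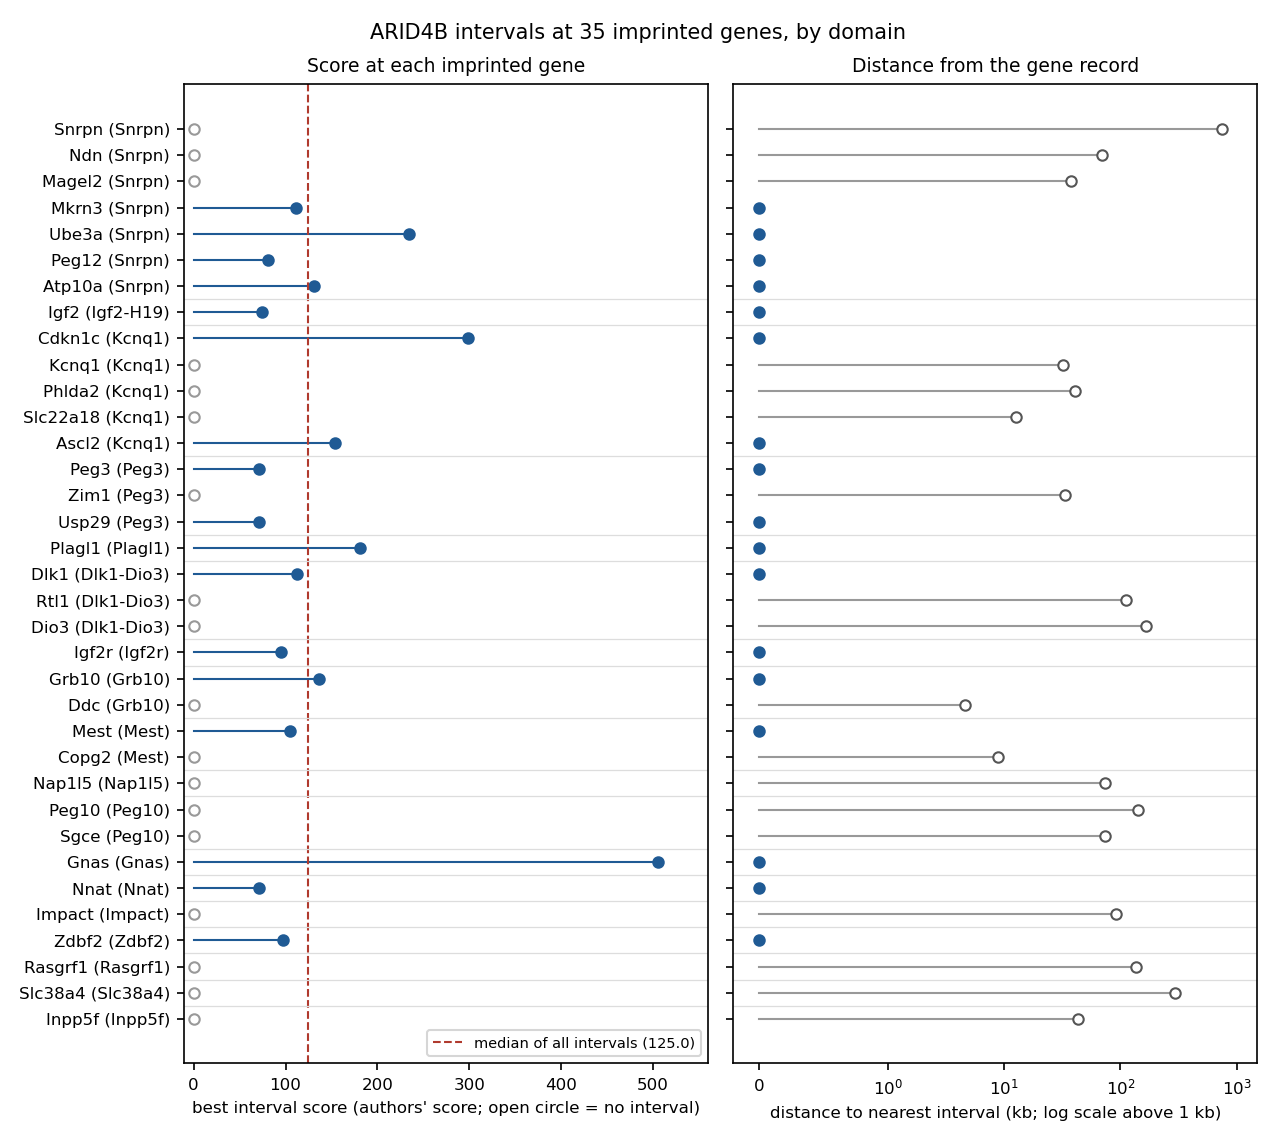
Best interval score (left, authors' score on a linear axis, open circles for genes without an interval) and distance from the gene record to the nearest interval (right, kb, logarithmic above 1 kb) for the 35 imprinted genes, grouped by domain, from 1 ChIP library. Gnas had the highest score, 505.11, and Snrpn the greatest distance, 752.7 kb; the dashed line is the median of all intervals, 125.0.

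In the Snrpn domain on chromosome 7, 4 of 7 genes were marked, beside 30.7% of all protein-coding genes. All 4 lay away from Snrpn. Ube3a, an E3 ubiquitin ligase that neurons express from the maternal copy, had the strongest interval of the domain, at chr7:59228319-59229836 with a score of 234.02 (rank 1004 of 6632). It covered the listed start of Ube3a, and reached 1086 bp downstream of it. Atp10a, an aminophospholipid-transporting ATPase gene for which imprinting is disputed in the mouse, had a score of 130.68 at chr7:58657897-58658848, also across its listed start.

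On the other side of the domain, Mkrn3, a makorin RING-finger gene expressed from the paternal copy, had a score of 111.66 at chr7:62419418-62420307, and the interval also reached the lncRNA record Gm32061. Peg12, a paternally expressed gene of the Frat family of GSK3-binding proteins, had a score of 81.36 at chr7:62464096-62464567, which at 472 bp was the narrowest interval of the 17. Both intervals covered the listed start. Between the intervals of Ube3a and Mkrn3 lay 3.19 Mb with none, in which Snrpn, Ndn and Magel2 lie among 5 protein-coding, 9 lncRNA, 206 snoRNA and 13 miRNA records. That stretch was the 126th longest of the 6612 between neighbouring intervals of the list.

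Snrpn, which encodes the spliceosomal protein SmN, had no interval within 752.7 kb of its record at chr7:59982495-60450177. It has 4 listed starts on the minus strand, and they lay between 775.4 and 1220.3 kb from the nearest interval, that of Ube3a. Its neighbours Ndn and Magel2, paternally expressed genes of the MAGE family, had their nearest interval at Mkrn3, at 69.5 and 37.8 kb. No interval was found at Snhg14, the lncRNA gene that runs through the snoRNA clusters of the domain, whose nearest was 42.9 kb away at Ube3a.

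The start windows of Snrpn held few CpG, while that of Ube3a held many. They are shown here with those of Plagl1, Gnas and Peg3, since these starts carry the strongest intervals with a listed start (Ube3a, Plagl1, Gnas), an interval at a start shared by a gene pair (Peg3), or none (Snrpn). Each runs 5′ to 3′ on the gene's own strand from 250 bases before the start to 50 after it, is taken from RefSeq on GRCm38.p6, and has every CpG in capitals. The most upstream Snrpn window, at chr7:60450128-60450427 on the minus strand, held 2 CpG, and the most downstream, at chr7:60005150-60005449, held 7. The Ube3a window, at chr7:59228500-59228799 on the plus strand, held 29.

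Snrpn most upstream start: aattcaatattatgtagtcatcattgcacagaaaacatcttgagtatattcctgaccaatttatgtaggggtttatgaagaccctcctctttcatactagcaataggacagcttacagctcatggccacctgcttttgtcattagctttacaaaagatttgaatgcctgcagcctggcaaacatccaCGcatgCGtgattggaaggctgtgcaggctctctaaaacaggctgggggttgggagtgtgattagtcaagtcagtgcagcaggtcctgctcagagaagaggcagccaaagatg
Snrpn most downstream start: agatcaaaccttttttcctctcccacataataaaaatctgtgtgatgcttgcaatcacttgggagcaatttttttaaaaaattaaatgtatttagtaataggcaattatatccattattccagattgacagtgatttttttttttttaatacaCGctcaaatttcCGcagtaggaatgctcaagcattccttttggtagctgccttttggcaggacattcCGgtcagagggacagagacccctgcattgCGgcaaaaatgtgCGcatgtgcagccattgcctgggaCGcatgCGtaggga
Ube3a start: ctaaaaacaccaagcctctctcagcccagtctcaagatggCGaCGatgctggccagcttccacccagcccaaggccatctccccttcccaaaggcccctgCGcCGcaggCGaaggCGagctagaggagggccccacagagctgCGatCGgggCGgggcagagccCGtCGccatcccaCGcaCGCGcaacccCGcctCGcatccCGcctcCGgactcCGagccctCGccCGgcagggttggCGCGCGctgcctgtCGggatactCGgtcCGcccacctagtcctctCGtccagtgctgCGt

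The 3 upstream Snrpn windows resembled each other, with 79.7, 81.4 and 81.1% identical columns in global alignments, and each matched the most downstream window at 50.6 to 52.9%. How reads that fit several such places were treated is not given in the sources used here, and its part in the lack of intervals was not tested.

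**Figure D2:**
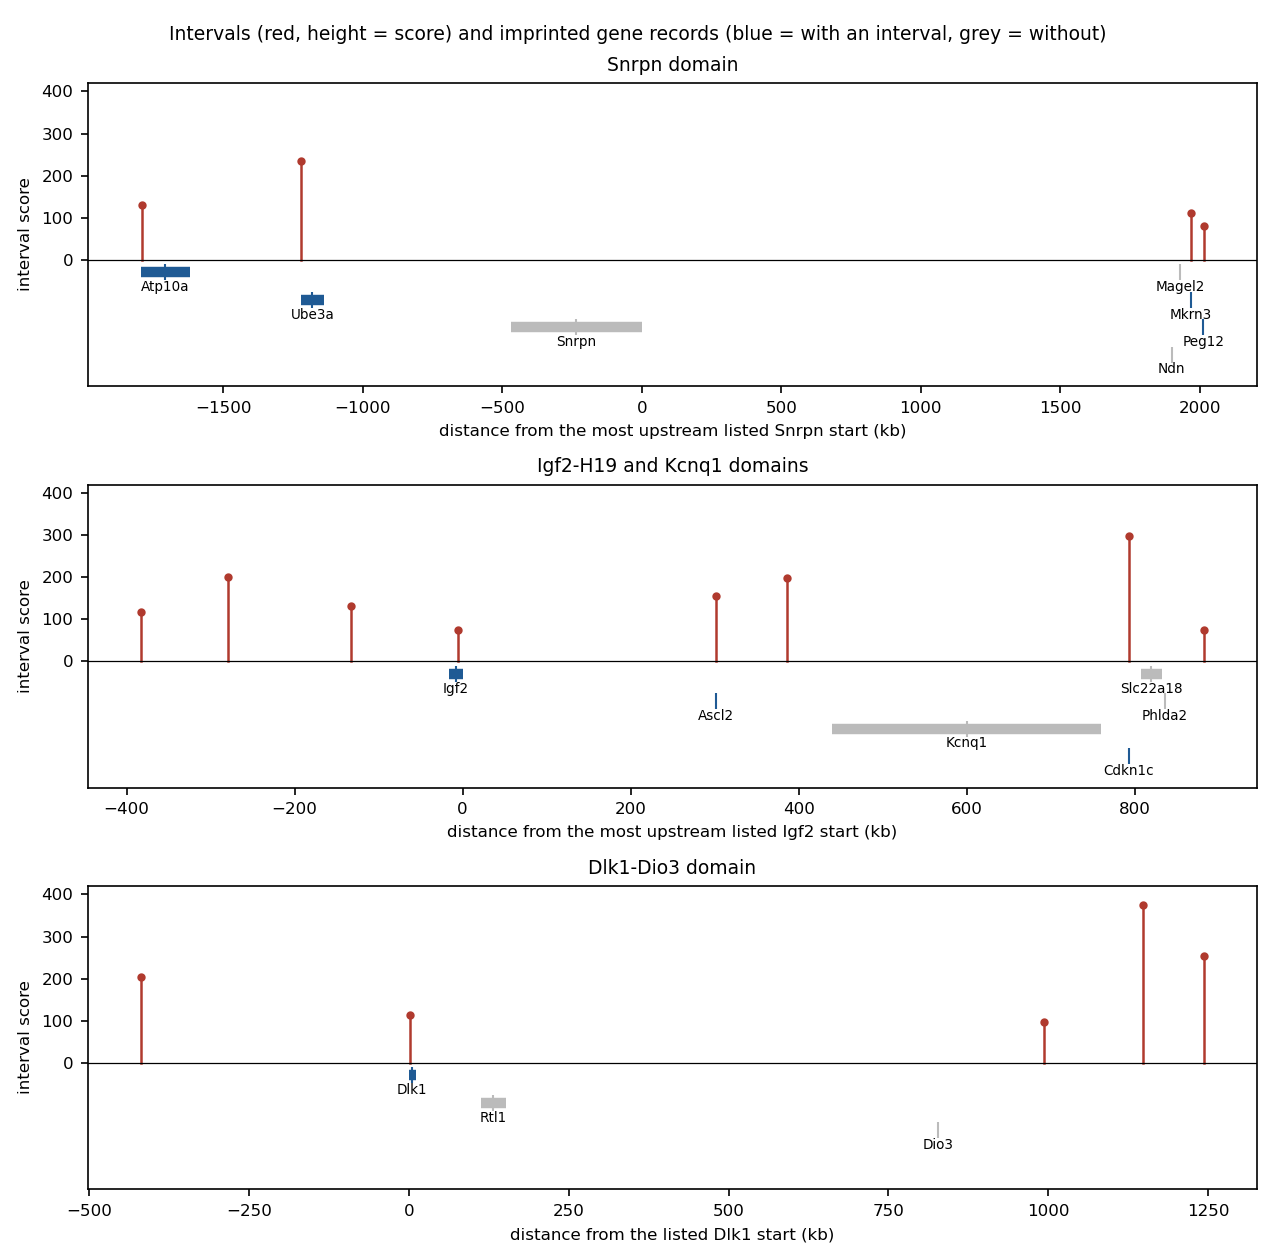
Intervals (red, height is the authors' score) and imprinted gene records (blue with an interval, grey without) in the Snrpn, Igf2-H19 with Kcnq1, and Dlk1-Dio3 domains, by distance in kb from a listed start, with the coordinate increasing to the right. The Snrpn record lies inside a stretch of 3.19 Mb and Rtl1 and Dio3 inside 0.99 Mb without an interval.

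The Kcnq1 and Igf2-H19 domains, which neighbour each other on chromosome 7, held 3 marked genes of 6. Over all protein-coding genes the share was 30.7%. Cdkn1c, which encodes the cyclin-dependent kinase inhibitor p57 and is expressed from the maternal copy, had a score of 298.16 at chr7:143459020-143461157 (rank 558), the highest single interval outside Gnas. The interval was 2138 bp wide and covered most of the 2.72 kb record. Ascl2, a maternally expressed bHLH factor gene needed in trophoblast, had 154.26 at chr7:142967726-142968713, beginning 551 bp downstream of its listed start.

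Around Cdkn1c, the growth-restraining gene Phlda2, the transporter gene Slc22a18 and the potassium channel gene Kcnq1 had none. All 3 had the Cdkn1c interval as their nearest, at 40.4, 12.6 and 32.0 kb. Kcnq1ot1, the paternally expressed lncRNA that silences this domain, lay 158.8 kb from an interval. Igf2, the paternally expressed growth factor gene, had a weak interval of 74.93 at chr7:142660436-142661344, which also reached the antisense record Igf2os. Its control partner H19 had none within 41.6 kb. ChIP does not tell strands apart, so an interval shared with an antisense record cannot be given to either.

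Plagl1, a growth-restraining zinc finger gene expressed from the paternal copy, had 181.43 at chr10:13090351-13091433, with the midpoint 60 bp downstream of its start. The interval also reached Hymai, the imprinted lncRNA at the same start. This start lies in the control region of the domain, which in most tissues is methylated on the maternal copy. Its 300-base window, chr10:13090582-13090881 on the plus strand, held 26 CpG and a match to TGCCGC. That is the motif of ZFP57, which keeps methylation at imprinting control regions. The most downstream Snrpn window shown above, which had no interval near it, also held a match.

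Plagl1 start: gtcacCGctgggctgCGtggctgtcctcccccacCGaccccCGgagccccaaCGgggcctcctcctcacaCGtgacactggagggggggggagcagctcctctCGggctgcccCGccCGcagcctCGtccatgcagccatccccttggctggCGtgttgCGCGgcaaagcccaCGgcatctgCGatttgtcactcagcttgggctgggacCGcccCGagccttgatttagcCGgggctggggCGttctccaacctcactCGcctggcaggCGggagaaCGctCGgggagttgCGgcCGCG

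Gnas held the strongest signal of the set, in 2 intervals. The gene encodes the stimulatory G protein alpha subunit and uses several starts, of which the upstream ones make other products from the parental copies. The stronger interval, at chr2:174327055-174329646, scored 505.11 (rank 109) and was 2592 bp wide, the widest of the 17. It held 2 listed starts 19 bases apart, the later of them at position 174327768. The weaker, at chr2:174330240-174331226, scored 236.96 and began 234 bp after the most downstream listed start. The most upstream listed start lay 42.7 kb from the stronger interval, and Gnasas1, the antisense gene also called Nespas, lay 31.6 kb from it. The windows of these marked starts held 28 and 40 CpG. They lie at chr2:174327518-174327817 and chr2:174329756-174330055, both on the plus strand.

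Gnas start inside the stronger interval: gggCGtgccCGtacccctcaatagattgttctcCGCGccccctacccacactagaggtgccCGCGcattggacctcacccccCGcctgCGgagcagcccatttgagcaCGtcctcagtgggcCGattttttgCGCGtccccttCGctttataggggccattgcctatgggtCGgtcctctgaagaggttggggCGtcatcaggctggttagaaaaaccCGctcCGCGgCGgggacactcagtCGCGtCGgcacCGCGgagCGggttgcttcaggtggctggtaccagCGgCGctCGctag
Gnas start before the weaker interval: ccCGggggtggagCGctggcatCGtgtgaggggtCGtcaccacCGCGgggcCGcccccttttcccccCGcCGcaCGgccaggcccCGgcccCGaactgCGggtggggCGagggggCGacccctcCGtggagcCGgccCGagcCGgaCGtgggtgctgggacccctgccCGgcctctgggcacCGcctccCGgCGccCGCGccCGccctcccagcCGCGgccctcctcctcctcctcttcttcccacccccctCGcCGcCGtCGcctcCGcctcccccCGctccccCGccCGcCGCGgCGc

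Peg3 and Usp29 shared 1 interval over their divergent starts, which are 164 bp apart. Peg3 is a zinc finger gene and Usp29 a ubiquitin protease gene, both expressed from the paternal copy, and their common start region is the control region of the domain. The interval, at chr7:6729822-6730797, scored 71.59 (rank 6495), close to the lowest score in the list, and since it covered both starts it cannot be given to either gene. Zim1, a maternally expressed zinc finger gene of the same domain, was 33.3 kb away. The Peg3 window at chr7:6730370-6730669 on the minus strand held 13 CpG.

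Peg3 start: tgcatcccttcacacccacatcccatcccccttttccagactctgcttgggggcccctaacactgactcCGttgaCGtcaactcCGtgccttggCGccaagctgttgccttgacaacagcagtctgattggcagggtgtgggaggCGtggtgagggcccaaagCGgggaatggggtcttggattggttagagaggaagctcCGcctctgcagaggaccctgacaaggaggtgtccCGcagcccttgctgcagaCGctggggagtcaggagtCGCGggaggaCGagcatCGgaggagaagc

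The remaining growth regulators among the marked genes had modest scores. Igf2r, the receptor that clears IGF2 and is expressed from the maternal copy, had 95.52 at chr17:12769078-12770326, centred 4 bp from its start. The interval also reached the record of Airn, the antisense lncRNA that silences Igf2r on the paternal copy. Grb10, an adaptor that restrains insulin and IGF receptor signalling, had 136.11 at chr11:12025456-12026452. Dlk1, a paternally expressed transmembrane protein gene related to Notch ligands, had 112.43 at chr12:109453375-109454042, beginning 552 bp downstream of its start.

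Mest, Nnat and Zdbf2, all expressed from the paternal copy, completed the marked set. Mest, which encodes a protein of the alpha/beta hydrolase fold, had 105.34 at chr6:30737706-30738655. Zdbf2, a zinc finger gene, had 97.81 at chr1:63272684-63273368, which also reached the lncRNA record Gm11608. Nnat, the neuronatin gene, had 70.83 at chr2:157560049-157560678, the lowest score of the 17. Nnat lies inside Blcap, whose record the same interval overlapped, and Blcap had a stronger interval of its own with 141.65. Of the 17 intervals, 3 scored under 80 (Igf2, Peg3 with Usp29, and Nnat), as did 12.4% of the list.

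Starts of transcription inside the records carried several of these intervals. Of the 17 marked genes, 16 had a listed start, and for 15 of them an interval lay within 1000 bp of one. In 13 of the 16 a listed start lay inside the interval. Among all genes with a listed start, 15 of 29 imprinted genes (51.7%) had an interval within 1000 bp of one, against 28.0% of protein-coding genes.

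Genes with several starts were marked at only some of them. Igf2 had 4 listed starts, and only the one next to the most upstream lay in its interval, while the rest were 1.6 to 5.5 kb away. At Mest the downstream pair of its 3 listed starts lay in the interval and the most upstream was 4.2 kb from it. At Zdbf2 the downstream start lay in the interval, while the upstream one was 22.7 kb from the nearest, which lay at Eef1b2 and Ndufs1. The exception was Grb10, whose interval began 1519 bp downstream of the nearer of its 2 listed starts and 10968 bp downstream of the other. The most upstream Grb10 window held 45 CpG, the most of any of the 45 listed starts of imprinted genes, and had no interval.

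**Figure D3:**
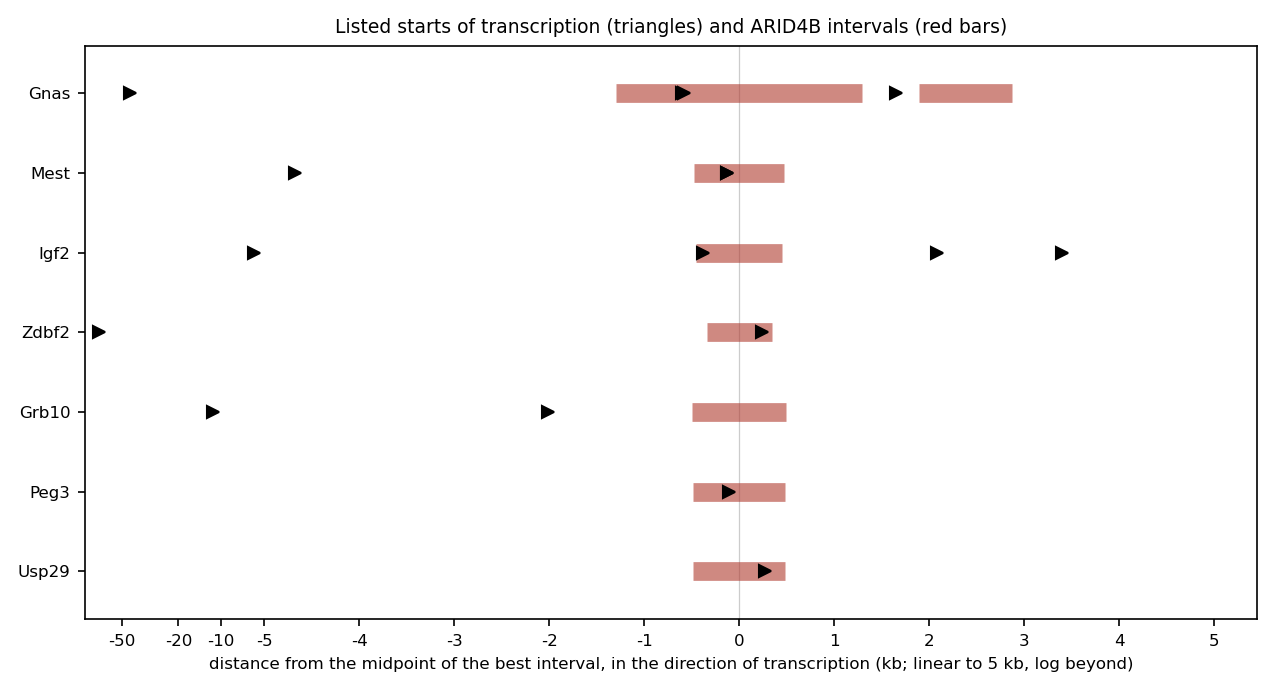
Listed starts of transcription (triangles, pointing in the direction of transcription) and ARID4B intervals (red bars) at 7 marked genes, by distance in kb from the midpoint of the best interval (linear to 5 kb, logarithmic beyond). Gnas, Mest, Igf2 and Zdbf2 each have starts inside an interval and starts far from it, and the Grb10 interval holds none.

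Unmarked genes of the other domains lay at widely different distances. The nearest miss was Ddc, the DOPA decarboxylase gene beside Grb10, at 4.6 kb from an interval at Fignl1 with a score of 248.41. At the other side of the 1000 bp limit, all 17 marked genes had an interval that overlapped the record itself. Copg2, a coatomer subunit gene beside Mest, was 8.9 kb from the Mest interval. Inpp5f, an inositol phosphatase gene with an imprinted variant, was 43.2 kb from an interval at Mcmbp. Sgce, the epsilon-sarcoglycan gene, and its neighbour Peg10, derived from a retrotransposon, were 73.0 and 142.9 kb away from intervals at Casd1 and Ppp1r9a.

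Nap1l5, a gene related to nucleosome assembly proteins, was 73.1 kb from an interval at Herc3, the gene in whose intron it lies. Impact, a regulator of translation, was 91.8 kb from an interval at Osbpl1a. In the Dlk1-Dio3 domain, Rtl1, a retrotransposon-derived placental gene, and Dio3, the deiodinase that inactivates thyroid hormone, were 110.9 and 165.2 kb away. They lay in a stretch of 0.99 Mb without an interval that also holds 61 miRNA, 19 snoRNA and 17 lncRNA records, Meg3, Rian and Mirg among them. Rasgrf1, a guanine nucleotide exchange factor gene for Ras, was 136.0 kb away. Slc38a4, an amino acid transporter gene, was 294.5 kb away from an interval with a score of 294.98 at its relative Slc38a2. Over the 18 unmarked genes the median distance was 71.2 kb, and 6 were more than 100 kb from any interval.

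Marked genes were found among those expressed from either parental copy. Of the maternally expressed genes 4 of 8 were marked, of the paternally expressed 10 of 21, and of those whose copy varies between tissues or is disputed 3 of 6. Over all protein-coding genes 30.7% were marked. Ube3a was counted as maternal, although its maternal expression is described above for neurons only. The groups are small, and the copy was taken from general knowledge rather than from these testes.

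Record length was read beside the counts, since a longer record is overlapped more easily. Imprinted genes were marked in 8 of 14 cases (57.1%) up to 20 kb, 5 of 13 (38.5%) from 20 to 100 kb and 4 of 8 (50%) above 100 kb. The same shares over all protein-coding genes were 23.8, 37.4 and 42.7%. The larger gap therefore lay among short genes, which include Mkrn3, Peg12, Cdkn1c, Ascl2 and Nnat, while the middle class stood near its background. The members were not longer where marked, with a median of 26.6 kb for marked and 38.9 kb for unmarked genes.

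CpG content moved with the presence of an interval, in these genes and in general. Among starts with 15 or more CpG in the 300-base window, 14 of 25 starts of imprinted genes (56%) had an interval within 1000 bp, beside 49.6% of all protein-coding starts. With 5 to 14 CpG it was 4 of 14 (28.6%), beside 13.3%. With under 5 CpG it was 0 of 6, beside 1.26%, and these 6 were the 3 upstream starts of Snrpn and 1 start each of Igf2, Slc22a18 and Ddc. The marked starts of imprinted genes had a median of 18.5 CpG and the unmarked ones 9, while over all protein-coding genes the medians were 26 and 7. Several unmarked starts were nevertheless rich in CpG, such as those of Phlda2 and Rasgrf1 with 26 each and Dio3 and Copg2 with 25 each. Starts of 1 gene can lie a few bases apart and share an interval, so these counts are not independent.

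The motif TGCCGC of ZFP57, on either strand, was present in 5 of 18 marked (27.8%) and 6 of 27 unmarked windows (22.2%) of imprinted genes. Over all protein-coding genes it was present in 23.8% of marked and 10.6% of unmarked windows, so the marked windows of imprinted genes stood near their background. The E2F motifs TTTCCCGC, TTTGGCGC and TTTCGCGC were found in 1 of the 18 marked windows, that of Atp10a, and in 0 of the 27 unmarked. Over all protein-coding genes they were found in 3.9% of marked and 1.86% of unmarked windows. A match says only that the letters are there.

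**Figure D4:**
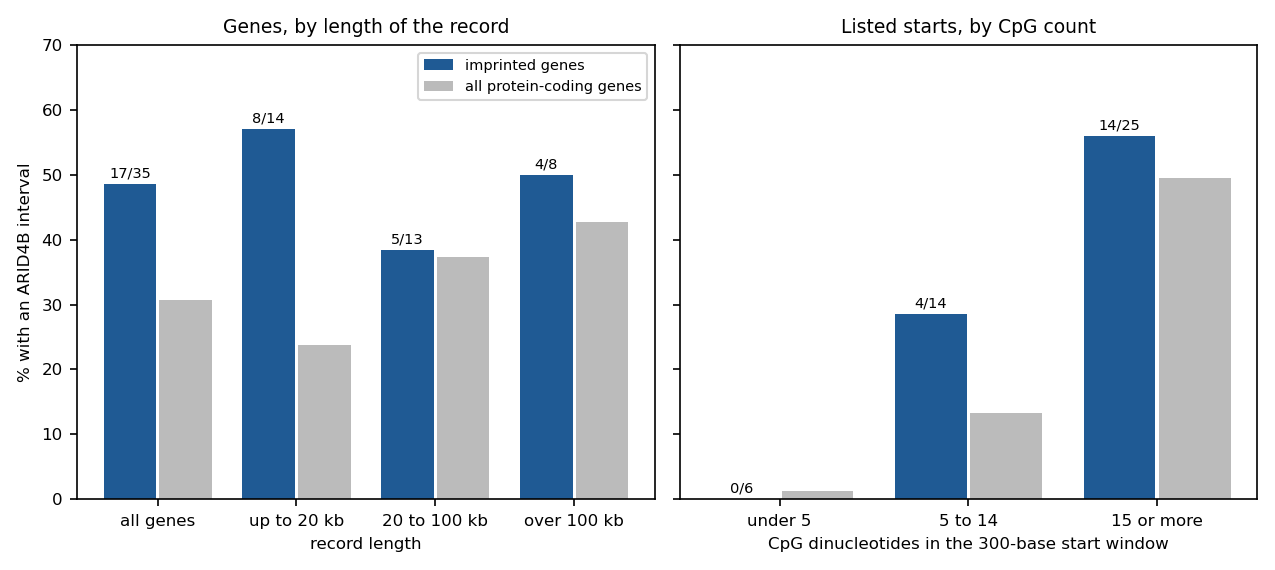
Share of imprinted genes (blue, counts above the bars) and of all protein-coding genes (grey) with an ARID4B interval, by record length (left), and share of listed starts with an interval within 1000 bp, by CpG count of the 300-base window (right). Among the length classes blue stands farthest above grey up to 20 kb (57.1 against 23.8%), and both rise with CpG count.

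The surroundings of the domains had about as many intervals per Mb as the chromosomes as a whole. Within 500 kb on either side of the members, joined into 17 spans of 23.9 Mb in all, there were 62 intervals, or 2.60 per Mb, beside 2.54 per Mb over the chromosomes that carry intervals. The spans held 9.85 protein-coding genes per Mb, beside 8.28. Of their 200 other protein-coding genes, 45 were marked (22.5%), beside 30.7% of all protein-coding genes. The density was lowest around the Snrpn domain, with 4 intervals in 4.81 Mb (0.83 per Mb), all at imprinted genes, and around Rasgrf1 (0.89 per Mb) and highest around Nnat (6.98 per Mb).

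A wider list of imprinted genes and domain neighbours was read in the same way. Of 42 such protein-coding genes 18 were marked (42.9%), beside 30.7% of all protein-coding genes. Its 21 marked genes of all kinds were not independent. Airn, Blcap and Hymai were reached by an interval of one of the 35 genes, Commd1 and Zrsr1 shared a single interval with a score of 101.27, and Peg13 and Trappc9 shared one with 146.62. The best scores were at the adaptor gene Gab1 (321.93), the amino acid transporter genes Slc38a2 (294.98) and Slc38a1 (229.48), Begain (204.78), the tetraspanin gene Cd81 (198.57) and Casd1 (189.77). Of its 14 RNA genes 3 were marked, Airn, Hymai and Peg13, beside 8.64% of all lncRNA records. The 14 include the antisense records Gnasas1 and Peg3os, a kind that the lncRNA share leaves out. Airn was marked only through the interval over the Igf2r start. That interval lies inside the long Airn record, chr17:12741311-12859884, and away from both of its ends. The regulatory lncRNA genes H19, Kcnq1ot1, Meg3, Rian, Mirg and Snhg14 had none.

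Genes of the proteins that set, read or erase imprints were marked in 18 of 34 cases (52.9%, beside 30.7% of all protein-coding genes). The strongest intervals were at Arid4a (639.41), at Trim28, the corepressor that ZFP57 recruits (505.91), and at the zinc finger factor gene Yy1 (451.25). Nsd1 and Ehmt2, histone methyltransferase genes, had 269.37 and 235.9, and Smchd1, which acts on the inactive X chromosome and some imprinted clusters, had 231.33. The de novo DNA methyltransferase genes Dnmt3b (173.11) and Dnmt3a (75.01) were marked, Dnmt3a by a weak interval (rank 6200 of 6632). Dnmt3l, their partner in the male germ line, lay 5.6 kb from an interval and the maintenance enzyme gene Dnmt1 8.5 kb. Zfp57, Zfp445, Setdb1 and Ctcfl had none either.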

How the data were processed

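The authors compared ARID4B ChIP with input DNA from pooled testes and deposited 1 list of intervals, each with a score. BWA, MACS and the mouse build mm9 are named, per the submitters' processing notes. Versions, settings and the handling of reads with several matches were not given in the sources used here, and read depth is unknown. The deposited score is called a p-value in the list but always exceeds 1, so it served only to rank intervals. The list is named for mm10, and 70.0% of intervals lay within 1000 bp of a listed GRCm38.p6 start, against 4.9 and 4.8% with starts shifted 200 kb up or down, so positions were read as GRCm38 and are printed counting from 1.

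Gene records, starts and sequences came from RefSeq (GRCm38.p6). All 35 genes matched by symbol. By symbol or older symbol, 56 of 58 genes of the wider list of imprinted genes and domain neighbours matched, as did 34 of 34 regulators. Starts were listed for 17492 of 21887 protein-coding genes. The members and lists were chosen with earlier results of these data known. Named genes were all members, the 6 best marked and the earliest unmarked genes of the other lists, and genes at named intervals. Dnmt3a, Dnmt3b, Peg13, Trappc9, Commd1, Zrsr1 and the printed Peg3 sequence were chosen after their values were seen. Overlaps were computed in Python 3.11.15 and tested on simulated data, where 200 of 200 genes with a planted interval were marked. Alternatives changed the window, overlap rule, score limit and flank, and with 1 ChIP library there was no test between groups.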

Additional observations from a re-analysis of the deposited data

How the results depend on the processing

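The count of 17 marked genes was 17 with the record alone or with midpoints (48.6%, beside 29.6 and 30.2% of all protein-coding genes). It was 18 with 5000 bp either side (51.4%, beside 33.5%), where Ddc joined. At listed starts 15 of 29 were marked (51.7%, beside 28.0%). There Grb10 was lost and 6 genes, Cdkn1c among them, could not be assessed. Counting the 1000 bp either side of the record's ends gave 11 genes (31.4%, beside 27.1% of all protein-coding genes) in 7 domains, with Atp10a, Igf2, Grb10, Mest, Gnas and Zdbf2 lost. The intervals of these 6 genes lie inside the records, and for 5 of the 6 within 1000 bp of a listed start. With intervals above the median score there were 7 genes (beside 16.7% of all) in 5 domains, the median distance of unmarked genes was 302.3 kb, and density was 1.47 per Mb. This setting uses fewer intervals by construction. The wider list of imprinted genes and domain neighbours, with 21 marked genes, had 12 at listed starts and 12 with intervals above the median. Its protein-coding genes were then marked in 11 of 32 cases (34.4%, beside 28.0% of all) and 10 of 42 (23.8%, beside 16.7%). The regulator list had 14 of 27 genes marked at listed starts (51.9%, beside 28.0%), where its other genes could not be assessed. Above the median score it had 14 of 34 (41.2%, beside 16.7%), and in the other settings 17 or 18 of 34. The distance to Snrpn was 752.7 to 753.4 kb in every setting tried. No paired analysis was possible because there was 1 ChIP library. The unknown depth limits what the absence of an interval says: enrichment below the authors' lowest score was not detectable here.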
